A study of Homo sapiens with 10 samples.

Results

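A set of 10 genes of the endoplasmic reticulum (ER) was followed at the level of ribosome footprints in CFPAC-1 and PANC-1, established lines of human pancreatic ductal adenocarcinoma. They were chosen by Ensembl gene ID as ER chaperones, folding enzymes and unfolded protein response genes, and make up 10 of the 20289 genes measured. They are HSPA5 (ENSG00000044574), HSP90B1 (ENSG00000166598), HYOU1 (ENSG00000149428), DNAJB9 (ENSG00000128590), CALR (ENSG00000179218), PDIA3 (ENSG00000167004), PDIA4 (ENSG00000155660), PDIA6 (ENSG00000143870), XBP1 (ENSG00000100219) and HERPUD1 (ENSG00000051108). Genes averaging under 1 FPKM across all libraries were left out, which kept all 10 members among 13125 genes tested. FPKM counts footprint fragments relative to the length of the gene and to all fragments mapped in the library. The 4 groups were PANC-1 with 1 µM imidazole ketone erastin (IKE, 4 libraries), PANC-1 with 0.1% DMSO (2 libraries), CFPAC-1 with 10 µM IKE (2 libraries) and CFPAC-1 with 0.1% DMSO (2 libraries). IKE is a derivative of erastin, a compound that blocks cystine uptake and triggers ferroptosis, in which iron drives the peroxidation of membrane lipids until the cell dies. In all groups only cells still attached after washing were collected, and they were arrested with cycloheximide before lysis. The treatment label gives 24 h, while the footprint protocol describes several days in a row, so how long the cells were exposed is open to doubt. Each line had its own dose, so line and dose cannot be told apart in any comparison of their responses.

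Secreted and membrane proteins fold in the ER with the help of chaperones, lectins and disulfide isomerases. When unfolded protein builds up, the sensors ATF6, IRE1 and PERK start the unfolded protein response. Cleaved ATF6 and spliced XBP1 then raise transcription of chaperone and degradation genes, while PERK slows general translation. Pancreatic exocrine tissue is known for a high load of secreted protein and for high levels of these genes.

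Of the 10 genes, XBP1 and HERPUD1 were lower in PANC-1 than in CFPAC-1 without IKE, 4.79-fold and 2.52-fold on the FPKM + 1 scale, and no other member was called in any comparison. These 2 of 10 compare with 21.1% of all tested genes called lower, and the call of HERPUD1 was lost without PANC-1 DMSO replicate 2 (log2 fold change -0.94, limma adjusted p = 0.1867). With IKE, 9 of 10 had lower mean log2 levels in PANC-1, where 51.1% of all tested genes did. All 10 had higher mean levels with IKE in CFPAC-1, by 0.12 to 0.96 on the log2 scale, where 47.1% of all tested genes did. PANC-1 IKE replicate 4 was a shallow library and the lowest of its group for 9 of 10 members. Without it, 6 of 10 were lower in PANC-1 with IKE and 4 higher. None of these IKE effects passed the threshold of an adjusted p under 0.05. With all libraries included, HSP90B1 was the member with higher mean levels under IKE in both lines.

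Several of these genes are textbook carriers of the ER stress response element (ERSE, CCAAT and CCACG with 9 bases of any kind between them) or of ERSE-II (ATTGG and CCACG with 1 base between them), the promoter motifs bound by ATF6 with NF-Y and by XBP1. The motifs were defined on genes of this family, so their presence here is not independent of the choice of genes. RefSeq promoter windows on GRCh38.p14 (250 bases before to 50 after the start) were matched for 9 of the 10 members by symbol, with 12 windows in all. PDIA3 was not matched. Both motifs were searched on both strands, and 7 of the 9 members held one of them. ERSE was found in 5 members and in 27 of all 35116 windows (0.0769%), and ERSE-II in 2 members and in 19 of all windows (0.0541%). Members are counted here as genes, and the shares are of windows, with those of the members included. The core TGACGTGG of a further XBP1 motif was found in HYOU1, where it overlaps the upstream ERSE-II match, and in 256 windows (0.729%). These letters were not in the windows of PDIA4 and DNAJB9. The sequences below show the matches that these members share, 5′ to 3′ on the strand of the gene, with the match in capitals. Capitals that begin with CGTGG are matches on the opposite strand.
HSPA5, chr9:125241377-125241423, minus strand: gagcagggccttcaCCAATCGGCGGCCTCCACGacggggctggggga
HSP90B1 upstream match, chr12:103930202-103930248, plus strand: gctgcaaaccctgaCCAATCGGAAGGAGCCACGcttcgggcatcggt
HSP90B1 downstream match, chr12:103930307-103930353, plus strand: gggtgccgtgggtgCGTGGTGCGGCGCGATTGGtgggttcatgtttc
CALR, chr19:12938370-12938416, plus strand: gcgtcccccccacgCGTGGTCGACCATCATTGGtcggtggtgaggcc
PDIA6, chr2:10812839-10812885, minus strand: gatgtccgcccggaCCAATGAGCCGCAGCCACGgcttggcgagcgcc
XBP1, chr22:28800589-28800635, minus strand: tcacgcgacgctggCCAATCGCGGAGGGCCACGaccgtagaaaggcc
HYOU1 upstream match, chr11:119057366-119057404, minus strand: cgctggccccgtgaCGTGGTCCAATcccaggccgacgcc
HYOU1 downstream match, chr11:119057260-119057298, minus strand: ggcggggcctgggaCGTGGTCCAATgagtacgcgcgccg
HERPUD1, chr16:56932011-56932049, plus strand: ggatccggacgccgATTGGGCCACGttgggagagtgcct
The match of HSPA5 lies 66 to 48 bases before the start and that of XBP1 52 to 34 bases before it, while that of CALR lies farther out, at 225 to 207 bases. A match describes the letters in this window and not binding in these cells.

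The libraries differed in depth. Relative to CFPAC-1 DMSO replicate 1, depth read from the steps between low FPKM values was 0.21 to 0.87 in PANC-1 IKE, 0.33 and 0.5 in PANC-1 DMSO, 0.97 and 1.17 in CFPAC-1 IKE and 0.92 in the other CFPAC-1 DMSO library. PANC-1 IKE replicate 4 was the shallowest at 0.21, and replicate 2 was nearly as shallow at 0.24. The share of FPKM taken by a library's top 10 genes was 9.29%, 16.2%, 12.2% and 23.1% across PANC-1 IKE replicates 1 to 4, while the PANC-1 DMSO libraries had 8.51% and 8.58%. All 4 IKE libraries were above both DMSO libraries in PANC-1. In CFPAC-1 this share was 9.64% and 8.74% with IKE, against 9.02% and 9.12% with DMSO. Replicates scattered more in PANC-1, with a residual SD on the log2 scale of 0.481 for the median gene, than in CFPAC-1, where it was 0.18. The test therefore gave each line its own weight. In these bulk samples fewer cells of a type and less RNA per cell cannot be told apart, and without RNA-seq a change in mRNA cannot be told apart from a change in its translation. The files name no genes other than through their IDs, so the labelled cell type was not checked against markers.

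**Figure D1:**
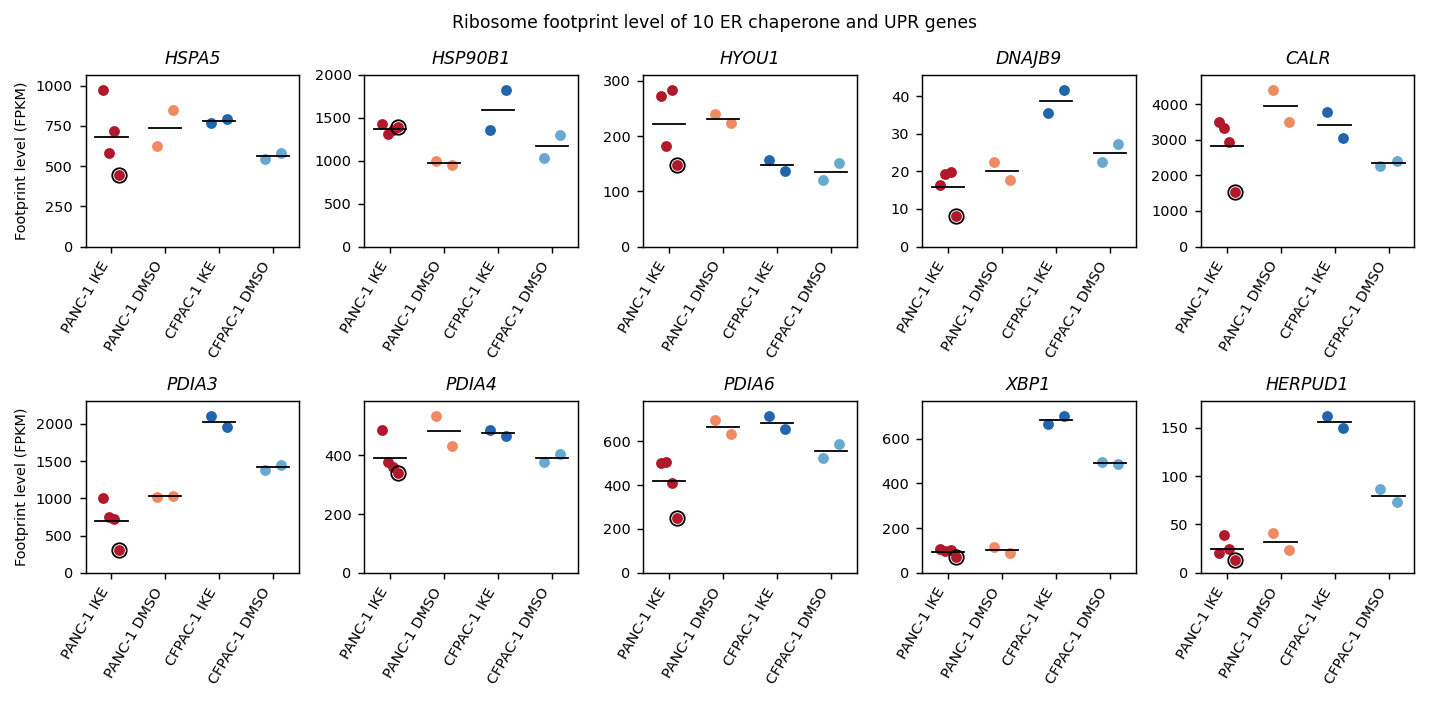
Footprint level in FPKM (vertical axes from 0) of each of the 10 genes in every library of PANC-1 IKE, PANC-1 DMSO, CFPAC-1 IKE and CFPAC-1 DMSO. Points are libraries, lines are group means, and the ringed point is PANC-1 IKE replicate 4, the lowest library of its group for 9 of the 10 genes. XBP1 and HERPUD1 show the widest gap between the lines.

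The first question was how the lines compare before IKE. CALR, the calcium-binding lectin chaperone of glycoproteins, had the highest level of the 10 in every library, and DNAJB9, a J-domain partner of HSPA5, the lowest. The mean of CALR was above 99.6% to 99.8% of all tested genes in the 4 groups, and the mean of DNAJB9 above 47.0% to 66.8%. FPKM is scaled by length, but which length was used for each gene was not given. The order of different genes may depend on it. In PANC-1 DMSO the order of mean levels was CALR, PDIA3, HSP90B1, HSPA5, PDIA6, PDIA4, HYOU1, XBP1, HERPUD1 and DNAJB9. In that group the libraries of HSPA5 and PDIA6 overlapped, and the other neighbours in the order did not. CFPAC-1 DMSO had the same first 5 genes, with HSPA5 and PDIA6 overlapping again, but XBP1 stood sixth, ahead of PDIA4 and HYOU1.

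XBP1 encodes the transcription factor that IRE1 activates by splicing its mRNA, and gene-level footprints do not separate the spliced from the unspliced form. Its level was 116 and 89.5 FPKM in PANC-1 DMSO, against 496 and 487 FPKM in CFPAC-1 DMSO. Both PANC-1 libraries lay far below both CFPAC-1 libraries. The log2 fold change was -2.26 with an SE of 0.24 and a limma adjusted p of 2.824e-05. HERPUD1 encodes a membrane protein of ER-associated degradation, the route by which misfolded proteins leave the ER for the proteasome. HERPUD1 was at 41.1 and 23.3 FPKM in PANC-1 DMSO and at 86.5 and 73.3 FPKM in CFPAC-1 DMSO. The groups did not overlap, and the log2 fold change of -1.33, with an SE of 0.37, had a limma adjusted p of 0.01511. XBP1 was called in all 20 alternatives, and HERPUD1 in all but the one without PANC-1 DMSO replicate 2.

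No member was called higher in PANC-1 (0 of 10), against 16.8% of all tested genes. At an unadjusted p under 0.05, 2 were lower (25.1% of all tested genes) and 2 higher (21.4%). The median log2 fold change of the members was 0.0028, beside -0.028 over all tested genes, with 5 members above 0 (48.7% of all tested genes) and 5 below (51.0%). HYOU1, a large chaperone of the HSP70 family that also releases nucleotide from HSPA5, had 239.5 and 224 FPKM in PANC-1 DMSO, against 121 and 151 FPKM in CFPAC-1 DMSO. Its log2 fold change of 0.77 ± 0.31 (SE) had a limma adjusted p of 0.06874. CALR had 4391 and 3509.5 FPKM in PANC-1 DMSO, against 2254 and 2409 FPKM in CFPAC-1 DMSO. For both genes the PANC-1 libraries lay above the CFPAC-1 libraries, and CALR had a limma adjusted p of 0.1021 at a log2 fold change of 0.75 (SE 0.34). Both passed the threshold without PANC-1 IKE replicate 4 (limma adjusted p = 0.03474 for HYOU1 and 0.02149 for CALR), a library that enters this comparison only through the weights and the estimate of the spread, which gave 4 members called in all. For each of the 10 members the 2 lines were apart, 5 higher and 5 lower in PANC-1, as were 33.8% and 36.8% of all tested genes.

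HSPA5 (BiP), HSP90B1, DNAJB9 and the disulfide isomerases PDIA3, PDIA4 and PDIA6 had log2 differences between -0.46 and 0.38, none of which passed the threshold (limma adjusted p from 0.3378 to 0.5504). For HSPA5 the 95% interval of the log2 difference was -0.26 to 1.02, so a difference of up to 2.02-fold higher in PANC-1 lies within it.

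**Figure D2:**
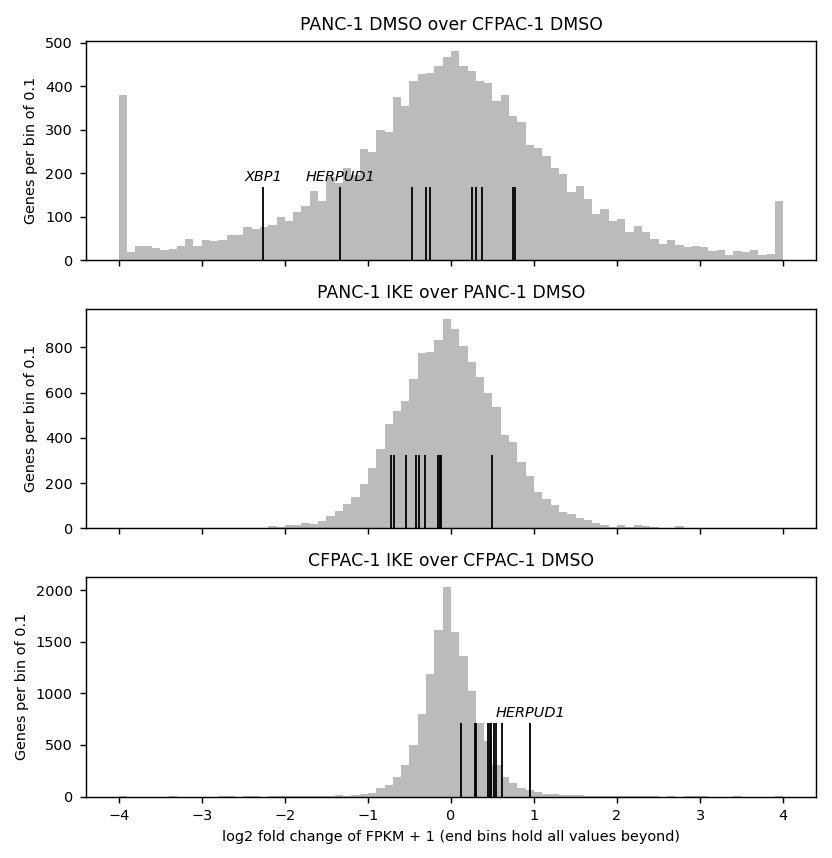
Histograms of the log2 fold changes of all 13125 tested genes (grey, genes per bin) for PANC-1 over CFPAC-1 in DMSO and for IKE over DMSO in each line, with the 10 members as black lines. Members with an absolute value above 0.9 are named. In the first panel XBP1 lies at -2.26 and HERPUD1 at -1.33, where 21.1% of all tested genes were called lower. All 10 members lie above 0 in the last panel.

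The second comparison asked how these genes responded to 1 µM IKE in PANC-1. Here limma called 0 of 10 members and 0 of 13125 genes (0% higher and 0% lower), with 1429 genes at an unadjusted p under 0.05. Of the members, 1 had such a p with a lower level, against 6.24% of all tested genes, and 0 had it with a higher level, against 4.65%. The median log2 fold change of the members was -0.35, against -0.02 over all tested genes, and 9 of 10 lay below 0 (51.1% of all tested genes) and 1 above (47.9%).

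PDIA6, a disulfide isomerase that also binds the sensor IRE1, showed the most negative value. In PANC-1 IKE replicates 1 to 4 its level was 499, 508, 410.1 and 251 FPKM, against 695 and 634 FPKM in PANC-1 DMSO. All 4 IKE libraries lay below both DMSO libraries. The log2 fold change was -0.72 ± 0.32 (SE), with an unadjusted p of 0.04549 and a limma adjusted p of 0.4413.

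PDIA3 (ERp57) forms disulfides in glycoproteins held by CALR. With IKE, PDIA3 was at 1012, 747, 722 and 305 FPKM in replicates 1 to 4 of PANC-1, against 1016 and 1037 FPKM in PANC-1 DMSO. CALR was at 3485, 3319.6, 2943 and 1544 FPKM in the same IKE libraries, against 4391 and 3509.5 FPKM in PANC-1 DMSO. For both genes the IKE libraries lay below the DMSO libraries, though IKE replicate 1 only narrowly. The log2 fold changes were -0.68 ± 0.41 for PDIA3 and -0.54 ± 0.37 for CALR (SE; limma adjusted p = 0.5518 and 0.6047).

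HSP90B1 (GRP94), the ER member of the HSP90 family, folds integrins and toll-like receptors among other clients. The 4 PANC-1 IKE libraries had 1431, 1308, 1355 and 1398 FPKM of HSP90B1, against 994 and 953 FPKM in PANC-1 DMSO. All 4 IKE libraries lay above both DMSO libraries and close together, with a mean of 1373 ± 53 FPKM (SD, n = 4) against 974 ± 29 FPKM (SD, n = 2). On the log2 scale it was higher by 0.50 with an SE of 0.32 and a limma adjusted p of 0.5819. The standard error comes from the fit, which assumes a common weight for all PANC-1 libraries and draws the variance of each gene towards the trend of all genes, and is wider than the spread of these 6 values.

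The remaining 6 members overlapped between IKE and DMSO in PANC-1. HSPA5 had 971, 580.4, 718 and 446 FPKM in the IKE libraries of PANC-1, against 623 and 848 FPKM in PANC-1 DMSO, with 1 IKE library above both DMSO libraries and 2 below. HERPUD1 had 20.8, 39.3, 24.2 and 13.5 FPKM in IKE, against 41.1 and 23.3 FPKM in DMSO. The level of XBP1 was 108, 95.5, 103 and 70.8 FPKM in IKE, against 116 and 89.5 FPKM in DMSO. The IKE and DMSO values of these 3 genes are mixed, and their log2 fold changes were -0.16 ± 0.32, -0.43 ± 0.41 and -0.13 ± 0.26 (SE; limma adjusted p from 0.721 to 0.8875). HYOU1 had 273, 183, 283 and 147 FPKM in IKE, against 239.5 and 224 FPKM in DMSO, so that 2 IKE libraries lay above and 2 below both DMSO libraries. DNAJB9 had 16.4, 19.3, 19.9 and 8.08 FPKM in IKE, against 22.5 and 17.8 FPKM in DMSO. PDIA4 had 486, 377, 360.4 and 340.2 FPKM in IKE, against 532 and 433 FPKM in DMSO. These 3 genes had log2 fold changes of -0.12, -0.39 and -0.31 (limma adjusted p = 0.9295, 0.7408 and 0.6703). PDIA4, a disulfide isomerase with several thioredoxin-like domains, was below both DMSO libraries in 3 of 4 IKE libraries.

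In all, 3 members (CALR, PDIA3 and PDIA6) lay below both DMSO libraries in 4 of 4 IKE libraries, against 12.2% of all tested genes, and 1 (HSP90B1) lay above, against 10.2%. PANC-1 IKE replicate 4 was the lowest IKE library for 9 of 10 members. Without it the same 3 lay below (14.9% of all tested genes) and the same 1 above (12.7%), but the log2 fold changes shrank to -0.28 for CALR, -0.33 for PDIA3 and -0.50 for PDIA6. Those of HSPA5, HYOU1 and XBP1 then stood at 0.025, 0.063 and 0.00178, so 4 of 10 members were above 0. HSP90B1 stayed at 0.49. The part that low depth, or the larger share of the most abundant genes in all 4 IKE libraries, has in these values was not tested.

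**Figure D3:**
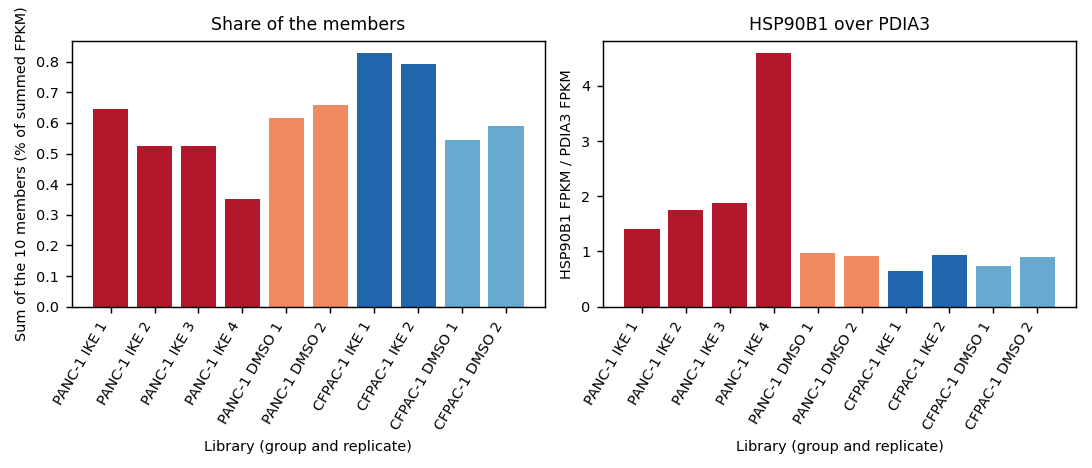
The summed FPKM of the 10 members as a percentage of all summed FPKM in each library (left), and the FPKM of HSP90B1 divided by that of PDIA3 in each library (right), bars from 0. The ratio is 1.41 or more in the 4 PANC-1 IKE libraries and below 1 in the other 6.

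A ratio of members within a library does not depend on how the library was scaled. The 4 PANC-1 IKE libraries had ratios of HSP90B1 to PDIA3 of 1.41, 1.75, 1.88 and 4.59, against 0.979 and 0.919 in PANC-1 DMSO. In CFPAC-1 it was 0.647 and 0.932 with IKE and 0.745 and 0.902 with DMSO. In PANC-1 the groups did not overlap, and HSP90B1 was above PDIA3 in 4 of 4 IKE libraries and 0 of 2 DMSO libraries, while in CFPAC-1 the values of both groups were mixed. The ratio of HSP90B1 to CALR was likewise 0.411, 0.394, 0.461 and 0.906 in PANC-1 IKE, against 0.226 and 0.271 in PANC-1 DMSO. The ratio of HSP90B1 to HSPA5 overlapped between the groups, at 1.47, 2.25, 1.89 and 3.14 in PANC-1 IKE, against 1.60 and 1.12 in PANC-1 DMSO. These 3 ratios were chosen after the values had been seen and are given as a description.

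The third comparison asked the same of 10 µM IKE in CFPAC-1. Again limma called 0 of 10 members, where 0.267% of all tested genes were called higher (35 genes) and 0.0838% lower (11 genes). At an unadjusted p under 0.05, 7 of 10 members were higher, against 5.97% of all tested genes (783 genes), and 0 were lower, against 5.77%. The SE behind this count depends on how the spread is pooled over the lines. Without weights the SE of the members was 0.26 to 0.46, against 0.13 to 0.22 with them, and the limma adjusted p was 1 for all 10. With CFPAC-1 libraries alone, the SE was smaller than in the main fit for every member except HSP90B1, and no member was called. The count of 7 comes from the main fit alone. Without weights the log2 fold changes were the same and the SE of every member was larger. For XBP1, the log2 fold change of 0.47 had an SE of 0.14 in the main fit and 0.27 without weights. How many members had an unadjusted p under 0.05 in these alternatives was not compared. All 10 log2 fold changes lay above 0, against 47.1% of all tested genes, and 0 below, against 51.6%. The median log2 fold change of the members was 0.48, against -0.011 over all tested genes. Both IKE libraries lay above both DMSO libraries for 9 of 10 members, against 20.2% of all tested genes, and below them for 0, against 22.3%. The exception was HYOU1. The members together held 0.827% and 0.792% of summed FPKM in CFPAC-1 IKE, against 0.545% and 0.590% in CFPAC-1 DMSO.

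HERPUD1 had the highest fold change of the members, at 162 and 149 FPKM in CFPAC-1 IKE against 86.5 and 73.3 FPKM in CFPAC-1 DMSO. Both IKE libraries lay well above both DMSO libraries. The log2 fold change was 0.96 ± 0.22 (SE), or 1.94-fold, with a 95% interval of 0.48 to 1.43, an unadjusted p of 0.001023 and a limma adjusted p of 0.1152. The interval and both p-values depend on the weights, as the SE of HERPUD1 was 0.44 without them. XBP1 was at 666 and 699 FPKM in CFPAC-1 IKE and at 496 and 487 FPKM in CFPAC-1 DMSO. Replicates of XBP1 lay close together in both groups, and IKE over DMSO was 0.47 ± 0.14 on the log2 scale (SE), with a limma adjusted p of 0.2158.

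Among the chaperones, HSPA5, the main HSP70 of the ER and the protein that holds the stress sensors inactive, had 768 and 794 FPKM in CFPAC-1 IKE, against 541 and 579 FPKM in CFPAC-1 DMSO. DNAJB9 had 35.6 and 41.7 FPKM in CFPAC-1 IKE, against 22.6 and 27.4 FPKM in CFPAC-1 DMSO. HSP90B1 had 1359.6 and 1823 FPKM in CFPAC-1 IKE, against 1030.5 and 1305 FPKM in CFPAC-1 DMSO. The groups were apart for all 3, narrowly for HSP90B1. Their log2 fold changes were 0.48 ± 0.17, 0.61 ± 0.21 and 0.44 ± 0.17 (SE; limma adjusted p = 0.307, 0.2941 and 0.3312). That of HSP90B1 was 0.23 without CFPAC-1 IKE replicate 2 and 0.27 without CFPAC-1 DMSO replicate 1. HYOU1 overlapped, with 157 and 137 FPKM in CFPAC-1 IKE against 121 and 151 FPKM in CFPAC-1 DMSO, and its log2 fold change of 0.12 ± 0.18 (SE) turned to -0.041 without CFPAC-1 DMSO replicate 1.

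In the glycoprotein folding pair, CALR had 3789 and 3051 FPKM in CFPAC-1 IKE, against 2254 and 2409 FPKM in CFPAC-1 DMSO. PDIA3 had 2101 and 1956 FPKM in CFPAC-1 IKE, against 1383 and 1447 FPKM in CFPAC-1 DMSO. Both genes were separated between groups, with log2 fold changes of 0.54 ± 0.20 and 0.52 ± 0.21 (SE; limma adjusted p = 0.3132 and 0.3778). PDIA4 and PDIA6 had smaller values of 0.29 ± 0.13 and 0.30 ± 0.17 (SE; limma adjusted p = 0.4429 and 0.534). PDIA4 was at 486 and 467 FPKM in CFPAC-1 IKE and at 376 and 405 FPKM in CFPAC-1 DMSO. PDIA6 was at 713 and 658 FPKM in CFPAC-1 IKE and at 523 and 589 FPKM in CFPAC-1 DMSO.

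**Figure D4:**
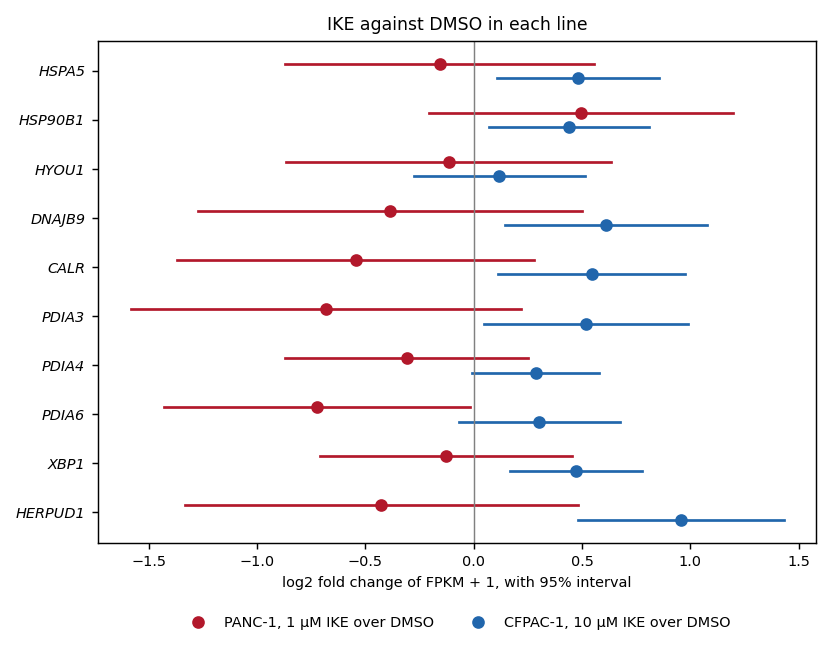
Log2 fold change of FPKM + 1 (horizontal axis) with its 95% interval for each of the 10 genes, for PANC-1 with 1 µM IKE over DMSO (red, upper of each pair) and CFPAC-1 with 10 µM IKE over DMSO (blue, lower). All 10 CFPAC-1 points lie above 0, from 0.12 to 0.96, while 9 of 10 PANC-1 points lie below 0, and no value passed an adjusted p under 0.05.

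The fourth comparison tested the difference between these responses, PANC-1 minus CFPAC-1. Here limma called 0 of 10 members, where 0.00762% of all tested genes were called higher (1 gene) and 0.0152% lower (2 genes). At an unadjusted p under 0.05, 4 of 10 members had a lower response in PANC-1, against 7.28% of all tested genes, and 0 had a higher one, against 5.21%. The median difference of the members was -0.82 on the log2 scale, against -0.011 over all tested genes, with 9 of 10 below 0 (50.7% of all tested genes) and 1 above (49.3%). HERPUD1 had IKE effects of -0.43 in PANC-1 and 0.96 in CFPAC-1, which differ by -1.38 with an SE of 0.46 and a limma adjusted p of 0.2969. Without PANC-1 DMSO replicate 1 its effect in PANC-1 was -0.031 and the difference -0.99, and over all fits without 1 library the effect in PANC-1 ranged from -0.82 to -0.031. PDIA3 had effects of -0.68 in PANC-1 and 0.52 in CFPAC-1, which differ by -1.20 with an SE of 0.46 and a limma adjusted p of 0.3339. The differences for CALR and PDIA6 were -1.09 ± 0.42 and -1.03 ± 0.36 (SE; limma adjusted p = 0.339 and 0.3138). Without PANC-1 IKE replicate 4 these 4 differences stood at -1.14 for HERPUD1, -0.85 for PDIA3, -0.82 for CALR and -0.80 for PDIA6. HSP90B1 differed by 0.055 ± 0.36 (SE), with a 95% interval of -0.74 to 0.85, so its responses in the lines were neither shown to differ nor shown to be alike.

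**Figure D5:**
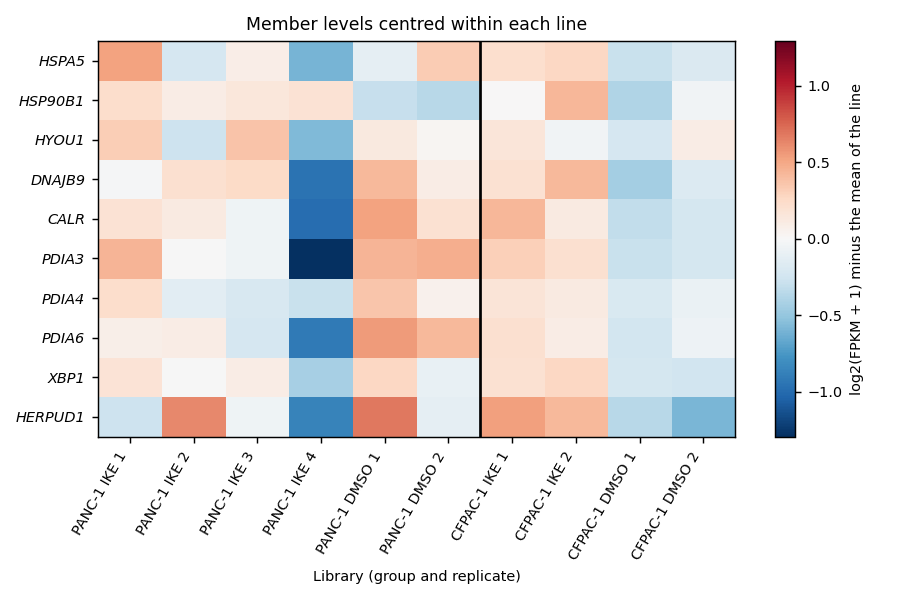
Log2(FPKM + 1) of each gene in each library minus the gene's mean over the libraries of that line (colour, red above and blue below the mean of the line). The black line separates PANC-1 (left) from CFPAC-1 (right). In CFPAC-1 both IKE libraries lie above the mean of the line for 9 of 10 genes, though HSP90B1 in IKE replicate 1 only barely (0.009). In PANC-1 the column of IKE replicate 4 is blue for 9 of 10.

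The mean of the 10 members, centred within each line, was 0.19, 0.050, 0.037 and -0.67 in PANC-1 IKE replicates 1 to 4, while the PANC-1 DMSO libraries had 0.29 and 0.10. In CFPAC-1 it was 0.24 and 0.23 with IKE, against -0.30 and -0.18 with DMSO. In PANC-1, IKE replicate 4 alone was far from the other libraries, while in CFPAC-1 the groups were apart. Over the 10 libraries, 6588 other genes averaging 20 FPKM or more were ranked by the Pearson correlation of their centred log2 values with this mean. The closest were ENSG00000105612 (0.988) and ENSG00000197746 (0.981), given by ID because the table does not name them. All of these genes share the libraries, their depth and the low values of PANC-1 IKE replicate 4, and no test was made of this likeness.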

How the data were processed

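Ribosome footprints were sequenced from 10 libraries of 2 cell lines. Per the file headers, the values of the deposited table are FPKM, which the authors gave to 2 decimals. Tools that the submitters list in their processing notes are DESeq2, RSEM, STAR, fastp and Bowtie2 2.2.8, on GRCh38, with no role or order. The annotation, strand setting and footprint length filter were not given in the sources used here. Each column was matched to a library by its label, and groups come from the titles. Absolute depth is unknown.

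The values were taken to log2(FPKM + 1), and genes averaging 1 FPKM or more were fitted with limma 3.58.1 (R 4.3.3). The 4 groups shared 1 model (6 residual degrees of freedom), with 1 weight per cell line and a trend of variance on mean level. P-values were adjusted by Benjamini-Hochberg over all 13125 genes, and calls needed an adjusted p under 0.05. Adding 1 FPKM makes fold changes of low genes too small. The fit recovered known changes in simulated data, but called more unchanged genes in CFPAC-1 than the threshold allows. P-values there therefore tend to be too small. The simulated noise had 1 spread per gene and line, without differences in depth or a deviating library. It cannot show how the PANC-1 test behaves with these. In the measured data the median SE over all tested genes was 0.43 for IKE in PANC-1 and 0.23 in CFPAC-1. A lack of calls in PANC-1 is therefore not evidence of no change. The titles call the replicates biological without saying whether cultures were separate, so p-values rest only on the spread between these samples. The fit pools this spread over the 4 groups and draws it towards the trend of all genes.

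Members, lists and tests were chosen with earlier results of these data known. All 10 members are named in each comparison. Names of members come from the rule that chose them, with positions and promoters from RefSeq (GRCh38.p14) matched by symbol. The reference named 0 of the table's IDs, so 4 planned lists of related genes and the cell type markers were not tested here. Of the 5 planned genes of similar pattern, 2 IDs are given. Alternatives covered weights, samples, pseudocounts of 0.1 and 5, filters, scaling, left-out libraries and a replicate block.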

Additional observations from a re-analysis of the deposited data

Results flagged for a closer look

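Of 14 values checked in PANC-1 IKE (the 10 members, their share of summed FPKM and 3 ratios with HSP90B1), 2 had a library far from the other 3. Chance flags about 1 in 20 values set in advance. Both flagged values are ratios chosen after the values had been seen, so this rate does not apply to them. The ratio of HSP90B1 to PDIA3 was 4.59 in PANC-1 IKE replicate 4, against 1.41 to 1.88 in the other IKE libraries. The ratio of HSP90B1 to CALR was 0.906 in the same library, against 0.394 to 0.461. Both share HSP90B1 and this library, the shallowest of the series. Without it, the ratio of HSP90B1 to PDIA3 in the remaining 3 IKE libraries still lay above the PANC-1 DMSO values of 0.979 and 0.919.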

How the results depend on the processing

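No member was called for an IKE effect or for the difference of IKE effects in any alternative. In CFPAC-1 the number of members with a positive log2 fold change was 9 or 10 throughout. HYOU1 alone changed sign there, ranging from -0.041 to 0.28 over the fits without 1 library. In PANC-1 that number was 2 with 1 weight per library, 3 with quantile normalization, 4 without IKE replicates 2 and 4, and 1 to 4 without 1 library each. The value of HYOU1 in PANC-1 was 0.13 with 1 weight per library, 0.00244 with quantile normalization and 0.26 without IKE replicates 2 and 4, and -0.25 to 0.063 without 1 library. HSPA5 was at 0.0435 with quantile normalization, 0.20 without IKE replicates 2 and 4, and -0.38 to 0.064 without 1 library. XBP1 was at 0.049 without IKE replicates 2 and 4 and at -0.31 to 0.056 without 1 library. For the difference of effects, 2 members were positive with 1 weight per library (HYOU1 at 0.0125) and 2 without IKE replicates 2 and 4 (HYOU1 at 0.15). Without 1 library that count was 0 or 1, with HSP90B1 from -0.16 to 0.27. The cause of these changes was not tested. Between the lines in DMSO, 4 members were called without PANC-1 IKE replicates 2 and 4, and 1 to 4 without 1 library. HYOU1 was also called with quantile normalization, at a log2 fold change of 0.88.

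Counts over all genes moved more. For CFPAC-1 IKE the 46 calls became 1 without weights, 0 with CFPAC-1 libraries alone, 77 with a pseudocount of 5, 21 without PANC-1 IKE replicates 2 and 4, and 16 to 44 without 1 library. For PANC-1 IKE there were 2 calls without weights and 1 each with PANC-1 libraries alone, no filter or without replicates 2 and 4, and 0 or 1 without 1 library. The difference had 0 to 6 calls without 1 library, and the comparison in DMSO 2868 to 5578. With the replicate number as a block on replicates 1 and 2, calls were 9 for CFPAC-1 IKE and 0 for the difference, 2 members were positive in PANC-1 and HSPA5 was at 0.047 there. The block changed no call of a member. Same-numbered libraries deviated with correlations of -0.21 in PANC-1 and 0.050 in CFPAC-1. With 1 such value per line, this cannot settle whether same-numbered samples were paired. Where 1 library of a group remained, it was assumed to vary like the others. Depth limits the precision of low values, such as those of DNAJB9 and HERPUD1 in PANC-1.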
